A study of Mus musculus with 34 samples.

Results

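BALB/cJ thioglycollate-elicited macrophages (TGEMs) held 44650 JunD loci over the vehicle (Veh) and Kdo2-lipid A (KLA) peak lists, and these fell into 3 classes. A peak was called only after KLA at 16015 loci (KLA-only, 35.9%, 95% CI 35.4 to 36.3), with both treatments at 17813 (shared, 39.9%, 39.4 to 40.3) and only with Veh at 10822 (Veh-only, 24.2%, 23.8 to 24.6). Peaks of the KLA list (33850) and of the Veh list (28652) that overlapped by 1 bp or more were joined into one locus, and every locus entered exactly 1 class. The 29 peak lists of the study that hold peaks merge into 93075 loci, and the BALB/cJ lists alone into 58778.

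JunD is a bZIP transcription factor of the AP-1 family, which binds DNA as a dimer of Jun, Fos or ATF proteins, and JunD is a Jun monomer that resting cells already contain. The classical AP-1 element is the TRE, and the related CRE is favoured by dimers with ATF proteins. KLA is a lipid that activates TLR4, which signals to NFκB, to the MAP kinases that raise and modify AP-1 proteins, and to interferon regulatory factors. In macrophages, PU.1 and C/EBP factors select much of the enhancer repertoire on which such stimulus-dependent factors act.

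The study mapped AP-1 monomers by ChIP-seq in macrophages that enter the mouse peritoneum after thioglycollate. The 2 groups described here are TGEMs of male BALB/cJ mice, cultured with Veh (PBS) or with KLA for 1 h and immunoprecipitated with the JunD antibody sc-74. Both carry the BALB/cJ genotype with no transgene or deletion, and whether cells of several mice were pooled is not given in the sources used here. The other BALB/cJ lists are ATF3 and Jun with Veh and KLA and Fos and JunB after KLA, and C57BL/6 TGEMs with the same treatments provide a JunD contrast that shares no sample with the one described. Each treatment has 1 list that the authors filtered over replicate experiments, so no replicate spread exists, no test was run, and the intervals given are Wilson intervals that cover counting error over loci only.

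The count of a peak is a whole number that was not scaled to library size. The 33850 KLA peaks ran from 17 to 314 counts with a median of 49, and the 28652 Veh peaks from 14 to 286 with a median of 43. A locus without a peak may still bind JunD. Peaks were filtered over replicate experiments, so the signal at such a locus need not lie below these lowest counts. Strength was expressed as the percentile of a peak's count within its own list, with the strongest peak at 100. The lists that other monomers gave held 36821 peaks for ATF3 after KLA, 19506 for ATF3 with Veh, 40459 for Fos, 21667 for JunB, 11317 for Jun after KLA and 10957 for Jun with Veh. The BALB/cJ list of Fos with Veh was empty and that of JunB with Veh held 9 peaks, so neither was read further.

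The sequences of the 3 strongest KLA-only loci are printed because they show how differently such loci are built. Each is the central 200 bp of the locus on the plus strand of GRCm38 (the C57BL/6J reference, not the BALB/cJ genome). Capitals mark exact matches on either strand to TGACTCA (TRE), TGACGTCA (CRE), GAGGAAGT (PU.1), TTGCNNAA (C/EBP) or TGATGCAA (C/EBP with ATF), to the NFκB motif (GGG and TTCC with 3 bases of any kind between them) or to the IRF motif (GAAA and GAAA with 2 such bases between them).
Ifi203, chr1:173955199-173955398: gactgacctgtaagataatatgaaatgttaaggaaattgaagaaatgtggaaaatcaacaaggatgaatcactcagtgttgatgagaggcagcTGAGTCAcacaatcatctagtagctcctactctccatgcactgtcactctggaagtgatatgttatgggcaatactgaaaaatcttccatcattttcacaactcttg
Ccl4, chr11:83665809-83666008: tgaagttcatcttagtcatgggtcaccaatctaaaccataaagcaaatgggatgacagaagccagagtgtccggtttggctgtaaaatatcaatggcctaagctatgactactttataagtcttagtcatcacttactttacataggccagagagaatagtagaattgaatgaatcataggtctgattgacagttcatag
Tnf, chr17:35198641-35198840: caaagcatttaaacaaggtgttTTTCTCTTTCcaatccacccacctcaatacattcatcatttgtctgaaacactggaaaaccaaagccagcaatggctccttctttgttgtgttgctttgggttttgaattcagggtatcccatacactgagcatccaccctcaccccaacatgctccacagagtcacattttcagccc
The first holds a TRE near its centre, the second holds none of these motifs, and the third holds only an IRF match at its edge.

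The shared loci with the largest gains of rank after KLA were printed for the same reason, with the same marking.
Plbd1, chr6:136656350-136656549: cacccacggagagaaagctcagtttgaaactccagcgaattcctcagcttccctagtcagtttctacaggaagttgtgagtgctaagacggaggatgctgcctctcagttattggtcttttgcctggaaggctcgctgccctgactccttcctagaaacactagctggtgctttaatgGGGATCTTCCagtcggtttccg
Bhlhe40, chr6:108688406-108688605: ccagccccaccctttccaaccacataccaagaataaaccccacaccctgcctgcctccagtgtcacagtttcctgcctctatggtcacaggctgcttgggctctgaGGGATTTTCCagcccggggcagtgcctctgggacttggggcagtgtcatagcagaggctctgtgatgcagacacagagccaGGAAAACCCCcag
Both hold NFκB matches and neither holds a TRE. The 2 shared loci with the largest losses of rank are printed next, the first with a TRE and the second with a PU.1 match. Of the 10 with the largest losses, 5 hold neither of these motifs.
Mkln1, chr6:31340027-31340226: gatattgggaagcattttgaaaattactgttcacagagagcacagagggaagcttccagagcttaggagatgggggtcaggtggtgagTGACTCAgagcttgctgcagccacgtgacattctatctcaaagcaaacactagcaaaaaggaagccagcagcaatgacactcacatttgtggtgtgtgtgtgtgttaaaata
Fnip2, chr3:79539781-79539980: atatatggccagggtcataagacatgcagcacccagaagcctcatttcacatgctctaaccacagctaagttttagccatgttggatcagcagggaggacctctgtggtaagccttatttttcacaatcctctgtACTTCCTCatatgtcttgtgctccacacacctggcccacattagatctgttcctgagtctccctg
The strongest Veh-only loci complete the set.
Fam129b, chr2:32882670-32882869: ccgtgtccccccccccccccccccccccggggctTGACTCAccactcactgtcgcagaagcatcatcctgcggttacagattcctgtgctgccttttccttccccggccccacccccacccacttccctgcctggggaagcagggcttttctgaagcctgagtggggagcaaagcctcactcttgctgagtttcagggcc
Ndfip2, chr14:105288639-105288838: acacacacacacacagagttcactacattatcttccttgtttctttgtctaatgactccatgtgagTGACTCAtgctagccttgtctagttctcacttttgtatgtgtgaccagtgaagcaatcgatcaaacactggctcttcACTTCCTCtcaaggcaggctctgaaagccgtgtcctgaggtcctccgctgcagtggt
Both hold a TRE, and the second also a PU.1 match.

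KLA-only and Veh-only loci were mostly weak, and shared loci were mostly strong. The median count was 37 at KLA-only loci (quartiles 27 and 53), against 66 in KLA at shared loci (43 and 102). Veh-only loci had a median of 28 (21 and 40), against 56 in Veh at shared loci (37 and 85). In the weakest 10% of the KLA list 81.6% of loci lacked a Veh peak, and in the strongest 10% this was 10.7% (360 of 3373 loci, 95% CI 9.68 to 11.8). In the Veh list the share without a KLA peak fell from 79.1% in the weakest 10% to 2.06% in the strongest 10% (59 of 2864, 1.6 to 2.65). The strongest 10% thus held 360 KLA-only loci and 59 Veh-only loci.

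**Figure D1:**
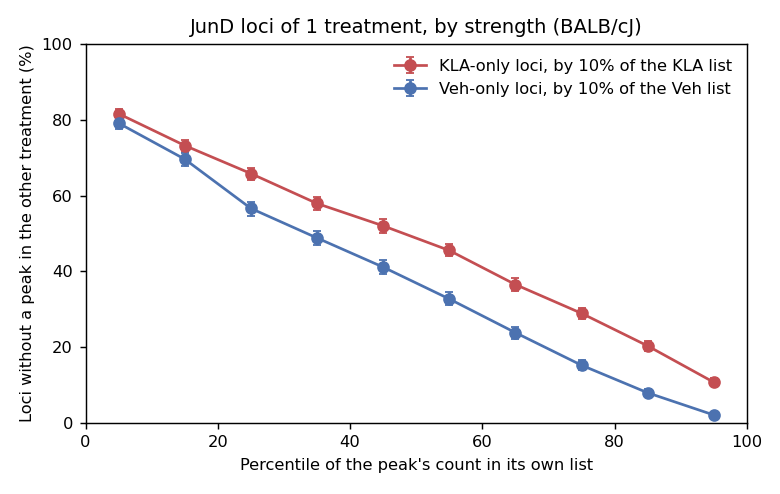
The y axis gives the percentage of loci that have no peak in the other treatment, and the x axis the percentile of the count in steps of 10% of the KLA list (red) or of the Veh list (blue), with 95% Wilson intervals as bars. The lines fall from 81.6% and 79.1% in the weakest 10% to the strongest 10%, where 10.7% of KLA loci and 2.06% of Veh loci have no partner peak.

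The surplus of KLA-only over Veh-only loci depended on the lengths of the lists. With the KLA list cut to its strongest 28652 peaks, 11899 loci were KLA-only, 16734 shared and 11904 Veh-only, a balance that lists of equal length impose. In C57BL/6 the same rule gave 45.4% KLA-only, 42.5% shared and 12.1% Veh-only of 35983 JunD loci. The BALB/cJ Veh-only share was therefore 24.2% against 12.1%, with list lengths of 28652 and 33850 peaks in BALB/cJ and of 19653 and 31640 in C57BL/6. Within BALB/cJ, ATF3 gave 51.8% KLA-only and 9.1% Veh-only loci of 40484, and Jun 34.8% and 32.6% of 16796.

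Few loci lay near the limit of the overlap rule. Of 17852 overlapping pairs of peaks, 107 shared under 50 bp, and the smallest overlap was 1 bp. A Veh peak lay within 200 bp of 775 KLA-only loci, and a KLA peak within 200 bp of 591 Veh-only loci, the closest at 2 bp. The median distance between the centres of an overlapping pair was 22 bp.

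The 3 classes lay in similar kinds of sequence. A protein-coding transcription start site (TSS) lay within 1 kb of 21.0% of KLA-only loci (95% CI 20.4 to 21.6), 16.3% of shared loci (15.8 to 16.9) and 19.9% of Veh-only loci (19.2 to 20.7). The median distance to the nearest TSS was 12349 bp, 15385 bp and 13863 bp in that order. Introns held 51.4% of KLA-only loci, 50.8% of shared and 50.3% of Veh-only loci, and the median GC content of the central window was 48.5% in each class. By chromosome, Veh-only loci made up from 20.3% (chromosome 16) to 26.6% (chromosome 8) of autosomal loci and 33.1% of the loci on chromosome X (275 Veh-only, 277 KLA-only and 278 shared).

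The 3 KLA-only loci with the highest counts were nearest to an interferon-inducible gene, a chemokine gene and a cytokine gene. The strongest, at chr1:173955190-173955406, lay between genes, 12626 bp upstream of Ifi203 (ENSMUSG00000039997), an interferon-inducible gene, with a count of 300. Fos (463), ATF3 (284) and Jun (149) also had peaks there after KLA, and neither ATF3 nor Jun had one with Veh. In C57BL/6 this locus had a JunD peak of 532 counts after KLA (median of that list 277) and none with Veh. The next locus, at chr11:83665795-83666022, had a JunD count of 265 and lay past the end of Ccl4, which encodes a chemokine for monocytes and T cells, 3324 bp downstream of its TSS. Fos (175), ATF3 (96) and JunB (96) accompanied it, and Jun had no peak.

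Tnf, the gene of the early inflammatory cytokine TNF, had a pair of loci among these 10. At chr17:35201994-35202245, 112 bp upstream of the TSS, JunD had 225 counts and all 4 other monomers had peaks after KLA, with Fos at 179, ATF3 at 139, Jun at 77 and JunB at 68. ATF3 already had a peak of 34 counts there with Veh. At chr17:35198614-35198866, past the 3′ end of the gene, JunD had 257 counts but Fos only 44 and Jun 18, and ATF3 and JunB had no peak. The 2 loci had similar JunD counts and unlike counts of the other monomers.

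The other 6 of these loci were nearest to Pfkfb3, a regulator of glycolysis (254 counts), Nr3c1, the glucocorticoid receptor gene (227), Cd44, a hyaluronan receptor (226), Fbxo11 (225), Tprg (222) and Fgd2 (218). The loci of Nr3c1 and Tprg lay 128945 bp and 245449 bp from the nearest TSS. Of the 10 loci, 9 had a Fos peak above 100 counts. The locus of Pfkfb3 stood apart from the others in having ATF3 (204) and Jun (120) peaks with Veh and no JunD peak in either C57BL/6 list. In C57BL/6, 7 of the 10 had a JunD peak after KLA only, 2 with both treatments and 1 with neither.

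Most of the strongest Veh-only loci had Fos and ATF3 peaks after KLA, and few had a Jun peak. The highest Veh count, 193, was at chr2:32882634-32882905 in an intron of Fam129b, where Fos (380), JunB (163), ATF3 (139) and Jun (76) all had peaks after KLA. The next, in an intron of Ndfip2 (159), had Fos at 227 and ATF3 at 159. Of the 10 Veh-only loci with the highest counts, 9 had Fos and ATF3 peaks after KLA. ATF3 and Jun each had a Veh peak at 9 of the 10, and Jun had a KLA peak at 2. All 10 had JunD peaks with both treatments in C57BL/6. The exception for Fos and ATF3 was at chr7:45456729-45456942, 2816 bp downstream of the TSS of Ftl1, the ferritin light chain gene, where JunD had 140 counts with Veh and no other BALB/cJ monomer had a peak.

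Over all 465 Veh-only loci in the strongest 25% of the Veh list, peaks of Fos and ATF3 after KLA were also frequent. Fos had a peak after KLA at 80.2% of them (95% CI 76.4 to 83.6) and ATF3 at 79.8%, against 98.5% and 98.7% of shared loci in that range. JunB was present at 30.1% of them (26.1 to 34.4) and at 90.3% of the shared loci. In C57BL/6, 70.5% of these Veh-only loci had JunD peaks with both treatments and 18.3% with Veh only.

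Other monomers were most frequent at shared loci, then at KLA-only loci after KLA and at Veh-only loci with Veh. After KLA, Fos had a peak at 69.0% of KLA-only (95% CI 68.3 to 69.7), 91.0% of shared and 36.9% of Veh-only loci. ATF3 followed the same order with 62.0%, 89.2% and 33.4%, JunB with 40.3%, 70.4% and 8.8%, and Jun with 16.0%, 44.9% and 3.6%. With Veh, ATF3 had a peak at 12.1% of KLA-only loci (11.6 to 12.7), 67.1% of shared and 28.2% of Veh-only loci. Jun had a Veh peak at 2.68% of KLA-only, 48.7% of shared and 14.1% of Veh-only loci. ATF3 or Jun was thus present before KLA at 13.4% of KLA-only, 73.3% of shared and 32.9% of Veh-only loci. The BALB/cJ lists of a treatment were called against the same input, so these lists are not independent of each other.

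**Figure D2:**
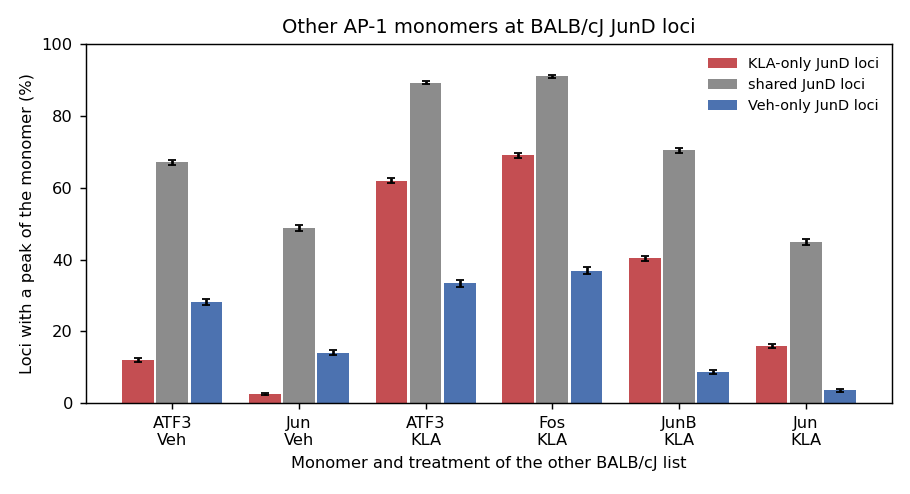
The y axis gives the percentage of KLA-only (red), shared (grey) and Veh-only (blue) JunD loci with a peak of another BALB/cJ monomer, for 6 lists on the x axis, with 95% Wilson intervals as bars. Shared loci are highest for each list, and KLA-only loci exceed Veh-only loci in the 4 KLA lists and fall below them in the 2 Veh lists.

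Most KLA-only loci held combinations rather than JunD alone. All 4 other monomers had peaks after KLA at 11.3% of KLA-only loci (1817), 38.8% of shared loci and 1.13% of Veh-only loci. None of the 4 had one at 21.0% of KLA-only (3368), 3.96% of shared and 52.3% of Veh-only loci. The commonest combinations at KLA-only loci were ATF3 with Fos and JunB (22.1%) and ATF3 with Fos (18.0%). Fos was the only other monomer at 10.7%, and ATF3 at 6.06%.

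Strength moved with these shares, so classes were compared within steps of 25% of the list. In the weakest 25% of the KLA list Fos was present at 43.9% of KLA-only and 61.1% of shared loci, and in the strongest at 96.5% (1444 of 1496, 95% CI 95.5 to 97.3) and 99.4%. For ATF3 with Veh the gap remained at equal KLA strength, with 7.13% of KLA-only and 39.2% of shared loci in the weakest 25%. In the strongest 25% the shares were 19.7% (17.7 to 21.7) and 84.5% (83.6 to 85.3). Jun with Veh was at 5.61% of the strongest KLA-only and 71.2% of the strongest shared loci. After KLA, the same strongest loci had Jun at 53.9% and 71.1%, ATF3 at 95.4% and 99.0% and JunB at 91.8% and 94.9%. KLA-only loci of high count thus had nearly as many Fos, ATF3 and JunB peaks after KLA as shared loci of like KLA strength. Peaks of ATF3 and Jun at rest were far fewer at these KLA-only loci. The classes were not matched for strength with Veh, since KLA-only loci lack a JunD Veh peak by definition. Shared loci in the weakest 25% of the Veh list had ATF3 with Veh at 22.7% and Jun with Veh at 4.45%. In the strongest 25% of the Veh list these shares were 90.9% and 82.0%. Whether the gap at rest goes beyond this selection was not tested.

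ATF3 and Jun fell into the same class as JunD at part of the loci. ATF3 also had a peak after KLA only at 51.6% of KLA-only JunD loci, with both treatments at 10.3%, with Veh only at 1.8% and with neither at 36.2%. Jun had a KLA-only peak at 15.2% of them and no peak at 82.1%. At Veh-only JunD loci, ATF3 had a peak with both treatments at 16.9%, after KLA only at 16.4%, with Veh only at 11.3% and with neither at 55.4%. Jun had a Veh-only peak at 12.8% of the Veh-only JunD loci and a KLA-only peak at 2.26%.

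The C57BL/6 lists gave the same contrast in other samples. Of the BALB/cJ KLA-only loci, 42.8% (95% CI 42.0 to 43.6) had a C57BL/6 JunD peak after KLA only, 11.0% with both treatments, 3.76% with Veh only and 42.4% with neither. Of the Veh-only loci, 12.5% (11.9 to 13.1) had one with Veh only, 12.0% after KLA only, 14.7% with both and 60.8% with neither. Of the shared loci, 62.0% had both. Strength again moved with the result. In the strongest 25% of the KLA list 71.9% of KLA-only loci (1076 of 1496, 69.6 to 74.1) were KLA-only in C57BL/6 and 3.14% had no peak there, against 20.2% and 72.7% in the weakest 25%. For Veh-only loci that were Veh-only in C57BL/6, the share was 4.24%, 16.7%, 25.9% and 18.3% from the weakest to the strongest 25% of the Veh list. In the strongest 25%, 70.5% had C57BL/6 peaks with both treatments. Over all Veh-only loci, the share that was Veh-only in C57BL/6 was 24.2% with the strongest 50% of each list and 20.7% with lists of equal length. The strain and the unequal strength of the 4 lists cannot be told apart here.

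Lineage factors of C57BL/6 TGEMs were most frequent at shared loci, and with Veh they were least frequent at KLA-only loci. PU.1, the master regulator of the myeloid lineage, had a Veh peak at 26.0% of KLA-only, 59.3% of shared and 47.0% of Veh-only loci, and a KLA peak at 39.8%, 67.4% and 42.1%. CEBPα had a Veh peak at 8.72%, 33.0% and 16.9%, and a KLA peak at 18.1%, 38.6% and 13.4%. PPARγ with Veh was at 25.6%, 64.5% and 38.0%. These values come from another strain and another set of libraries. They were not compared at equal JunD strength, and the median KLA percentile of JunD was 66.5 at shared and 33.4 at KLA-only loci.

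The shares of several motifs differed between the classes, and those of others were similar. The TRE (TGACTCA, which read on the other strand is TGAGTCA) was in the central 200 bp of 24.8% of KLA-only loci (95% CI 24.2 to 25.5), 34.6% of shared (33.9 to 35.3) and 15.7% of Veh-only loci (15.0 to 16.4), against 17.9% of all loci of the series. The NFκB motif was in 9.02% of KLA-only (8.58 to 9.47), 5.02% of shared and 2.99% of Veh-only loci (2.69 to 3.33), against 4.94% of all loci. The PU.1 motif GAGGAAGT ran the other way, with 5.81% of KLA-only (5.46 to 6.19), 9.93% of shared and 9.64% of Veh-only loci (9.1 to 10.2), against 10.9% of all. The C/EBP motif TTGCNNAA was in 12.9%, 17.0% and 14.9% (14.2% of all loci) and the CRE TGACGTCA in 1.17%, 2.31% and 1.13% (0.985%). The IRF motif was in 4.63%, 3.88% and 3.03% (3.72%). The composite TGATGCAA (1.6%, 1.73% and 1.4%), the RUNX motif (1.29%, 1.51% and 1.37%) and the ETS motif (1.65%, 1.62% and 1.81%) had similar shares in the 3 classes. The USF E-box was in 4.55%, 5.54% and 5.89% and the SP1 motif in 3.08%, 2.94% and 3.99%. All were searched on both strands, and a base can belong to matches of more than one motif.

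The NFκB motif became more frequent with strength at KLA-only loci. It was in 6.42% of those in the weakest 25% of the KLA list and 18.1% of those in the strongest 25% (271 of 1496, 95% CI 16.2 to 20.1), against 2.64% and 7.41% of shared loci in the same ranges. At Veh-only loci it was in 3.2% and 2.37% over the same ranges of the Veh list. The PU.1 motif stayed between 5.48% and 5.95% over the 4 ranges of KLA-only loci, and it was in 9.75% of the strongest shared loci and 11.4% (8.82 to 14.6) of the strongest Veh-only loci. The TRE was in 30.1% of the strongest KLA-only loci and 45.0% of the strongest shared loci of the KLA list.

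**Figure D3:**
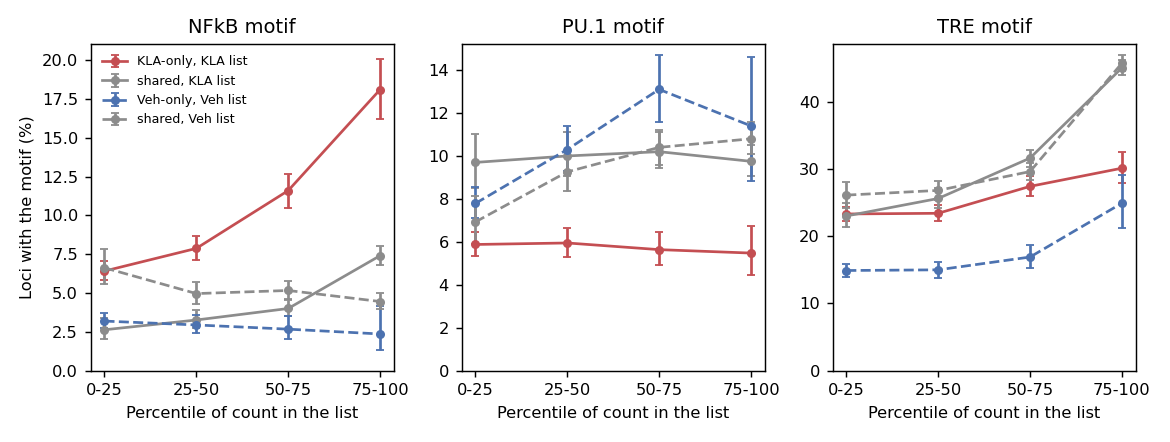
The y axes give the percentage of loci whose central 200 bp hold the NFκB (left), PU.1 (middle) or TRE (right) motif, in steps of 25% of the count in the KLA list (solid lines) or the Veh list (dashed), with 95% Wilson intervals as bars. At KLA-only loci (red) the NFκB share climbs from 6.42% to 18.1%, and their PU.1 share stays between 5.48% and 5.95%.

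KLA-only loci with a Fos peak held a TRE in 29.4% and an NFκB motif in 10.1%, and those without Fos in 14.6% and 6.69%. Where all 4 other monomers were present the TRE share was 35.3%, and where none was, 13.7%. The composite of a C/EBP and an ATF site, TGATGCAA, was in 6.43% (95% CI 5.42 to 7.6) of the KLA-only loci that already had an ATF3 peak with Veh and in 0.938% of the others. The same direction was found at shared loci (2.37% against 0.427%) and at Veh-only loci (3.9% against 0.425%). Near a TSS (within 1 kb) the TRE was in 9.4% and the CRE in 2.71% of KLA-only loci, against 28.9% and 0.759% farther away.

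At shared loci, the ranks with Veh and after KLA differed widely for part of the loci. The percentile rank was higher after KLA by 25 points or more at 2298 of 17813 loci (12.9%) and lower by as much at 2036 (11.4%). The median ratio of the KLA to the Veh count was 1.12 (quartiles 0.857 and 1.54), while the counts of the whole lists summed to 2097197 and 1544892. Over the shared loci the Spearman correlation of the counts was 0.647 (n = 17813 loci from the same 2 lists, a description).

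A shift of rank depended on the starting rank, with a median of 19.9 points at loci in the weakest 25% of the Veh list and of -3.71 in the strongest 25%. The 10 loci with the largest gains, chosen by the shift itself, therefore had low counts with Veh. At chr6:136656248-136656651, in an intron of Plbd1, JunD had 17 counts with Veh (percentile 4.02) and 148 after KLA (percentile 95.04). The locus nearest to Bhlhe40, a transcriptional repressor gene, had 18 and 154 counts. The locus of Mcl1, which encodes a survival protein, had 19 and 169 counts. An intron of Nfkbiz, which encodes the atypical IκB protein IκBζ, had 16 and 122. The values were 18 and 137 both upstream of Cd83, a marker of activated antigen-presenting cells, and 5173 bp upstream of the TSS of Spi1, the gene of PU.1. Loci nearest to Pkmyt1, Snx27 and Akna were also among the 10, and Fos, ATF3 and JunB had KLA peaks at all 10 of these loci.

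At the loci with the largest losses, the counts with Veh and after KLA were 86 and 21 at the locus nearest to Mkln1, 77 and 19 in an intron of Fnip2, 103 and 25 near Kcnj9, 111 and 27 near Rhoj, and 71 and 19 nearest to Htr2b in an intron of Psmd1. The others of the 10 were nearest to Gm10604, Gm26566, Colec12, Triqk and Emc1. Jun had a Veh peak at 9 of the 10 loci and a KLA peak at 1, and ATF3 had a Veh peak at 8. Over all loci with a loss of 25 points, Jun had a Veh peak at 51.7% (95% CI 49.5 to 53.9) and a KLA peak at 23.7%, over those with a gain at 18.9% and 47.3%, and over those with a smaller shift at 53.4% and 47.7%. Jun with Veh was thus sparser at loci with a gain than at the rest, and Jun after KLA sparser at loci with a loss. Loci with a gain were picked for a lower rank with Veh than after KLA, and loci with a loss for the reverse. Among shared loci, Jun with Veh was at 4.45% in the weakest 25% of the Veh list and 82.0% in the strongest. Jun after KLA was at 6.97% and 71.1% over the same ranges of the KLA list. JunB after KLA was at 82.9% of the loci with a gain, 71.8% of those with a smaller shift and 47.0% of those with a loss. The NFκB motif was in 10.6% (9.42 to 11.9) of the loci with a gain, 4.59% of those with a smaller shift and 1.57% of those with a loss. The Jun, JunB and NFκB shares of these groups were not compared at equal strength.

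The 5 strongest shared loci were also strong with Veh. The KLA count was 314 near Slfn2 (237 with Veh), 290 nearest to Cdc42bpg in an intron of Ehd1 (266), 287 nearest to Ank2 in an intron of Camk2d (199), 283 in an intron of Bach1 (177) and 282 upstream of Il1a (96). All 5 held a TRE and a peak in each of the 6 lists of other monomers. Of these, the locus of Il1a, an interleukin 1 gene, differed most in rank, with percentile 87.6 with Veh and 99.99 after KLA.

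Shifts of rank in C57BL/6, in other samples, mostly had the direction of those in BALB/cJ. JunD had peaks with both treatments in both strains at 11038 loci, and the Spearman correlation of the 2 shifts was 0.639 over these loci, which share the genome position. Sequence differences between the strains were not analysed here. Of the 832 with a gain of 25 points in BALB/cJ, 800 (96.2%) were also higher after KLA in C57BL/6, with a median shift of 44.0 points. Of all 11038 loci, 58.2% were higher after KLA there. Of the 1165 with a loss of 25 points, 944 (81.0%) were also lower, with a median of -18.4 points. These are parts of the 2298 loci with a gain and the 2036 with a loss, since a C57BL/6 shift needs both peaks. A C57BL/6 JunD Veh peak was at 37.6% of all loci with a gain and 71.8% of those with a loss. The locus in Pkmyt1 had shifts of 88.6 points in BALB/cJ and 80.5 in C57BL/6, and the locus nearest to Gm26566 -75.9 and -76.2.

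**Figure D4:**
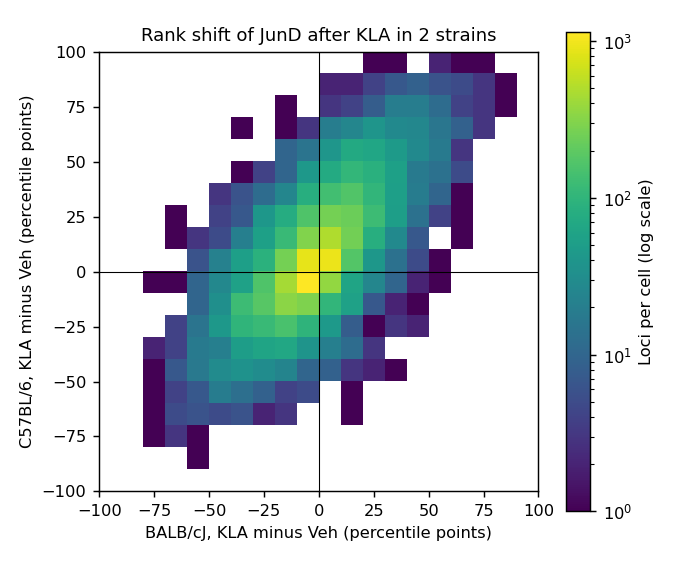
Cells of 10 by 10 percentile points are coloured by the number of shared loci (log scale), with the rank shift after KLA in BALB/cJ on the x axis and in C57BL/6 on the y axis, for the 11038 loci with both peaks in both strains. Loci lie along the diagonal, with 3 loci that gained 25 points in BALB/cJ and lost 25 in C57BL/6, and 31 the other way.

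Genes were assigned to loci by the nearest protein-coding TSS within 100 kb. Of 21827 protein-coding genes, 31.3% were nearest to a KLA-only locus, 30.9% to a shared and 25.4% to a Veh-only locus. Among the 10925 genes with any JunD locus these shares were 62.5%, 61.8% and 50.7%. Their 40066 loci were KLA-only in 36.0% and Veh-only in 24.2%. Counts of list genes are read against these values, with no test.

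The loci of inflammatory genes, pooled over the genes of a list, were mostly KLA-only. A KLA-only locus was nearest to 14 of 15 chemokine genes, to 23 of 24 cytokine genes and to 15 of 16 NFκB subunits and feedback inhibitors, whereas a Veh-only locus was nearest to 3, 8 and 7 of them. Of the 88 chemokine loci 61.4% were KLA-only and 3.41% Veh-only, of the 178 cytokine loci 61.2% and 6.18%, and of the 193 loci of the NFκB list 63.2% and 5.7%. Genes with many loci weigh most in these shares, and Tnfaip3 and Nfkb1 held 29 and 22 of the 122 KLA-only loci of the NFκB list. KLA-only loci were not the majority at every gene, as at Bcl3 with 2 KLA-only and 5 shared loci. The shared loci of these genes had median rank shifts of 9.52, 13.7 and 8.29 points, against -0.576 over all genes. A gain of 25 points was found at 9 of 31 shared chemokine loci, 17 of 58 cytokine loci and 21 of 60 loci of the NFκB list, against 12.9% of all shared loci.

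Among chemokines, the highest KLA-only counts were at Ccl4 (265), Ccl9 (189), Cxcl1 (180) and Ccl5 (165), which attract monocytes, neutrophils or T cells. Cxcl10, an interferon-induced T cell chemokine, had 3 KLA-only loci and none of the other classes, with 157 counts at 145 bp upstream of its TSS. All 3 overlap an intron of Art3. Fos (218), ATF3 (131), JunB (80) and Jun (54) also had KLA peaks at that Cxcl10 locus. Among cytokines, Tnf (257) was followed by the adjacent Lta (181), Il23a, which encodes the p19 subunit of interleukin 23 (156), and Il1a (152).

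In the NFκB list the highest KLA-only count, 207, was at chr16:55838674-55838901, 67 bp downstream of the TSS of Nfkbiz, in its UTR. Tnfaip3, which encodes the deubiquitinase A20 that limits NFκB signalling, had 198, Nfkbia, the IκBα gene, 182 at 114 bp upstream of its TSS, and Nfkb1, the p105 and p50 subunit gene, 155. Tnfaip3 and Nfkb1 were also among the 10 genes with the most KLA-only loci, with 29 and 22. Nfkb1 had 2 shared loci and no Veh-only locus beside its 22, and Tnfaip3 11 and 2 beside its 29. The gene with the most was Cd44, with 32 KLA-only, 20 shared and 6 Veh-only loci, followed beside Tnfaip3 by Foxp1 (29, 23 and 5) and Dock10 (25, 16 and 4). Sgms1, Lpp, Arid5b, Tnfaip2 and Asap1 had 17 to 21 KLA-only loci.

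Genes of the immediate-early response and of signal brakes had loci of each class. Of the 149 loci at AP-1 genes 34.2% were KLA-only and 23.5% Veh-only, and of the 178 loci at other immediate-early genes 35.4% and 17.4%. The AP-1 gene with the highest KLA-only count was Atf3 itself (139), ahead of Fos (96), Batf2 (95) and Fosb (94). Among the other immediate-early genes, Ier5 (178), Zfp36, which encodes the mRNA-destabilizing protein tristetraprolin (156), Maff (130) and Myc (116) led. All 16 genes of dual-specificity phosphatases and MAPK brakes had a KLA-only locus and 10 a Veh-only locus, with Gadd45b (154), Dusp2 (117), Dusp4 (116) and Dusp1 (102) highest. Of their 170 loci 37.1% were KLA-only and 21.8% Veh-only, near the 36.0% and 24.2% of all protein-coding genes.

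In the Socs and Spsb list, 7 of 12 genes had a KLA-only locus, with Socs5 (136), Socs3 (109), Cish (92) and Socs1 (42) highest. Spsb1, which encodes a substrate adaptor of ubiquitin ligases, had 5 shared and 2 KLA-only loci, and its KLA-only counts of 24 and 23 were near the lowest in the list. Its shared locus at chr4:149840977-149841228 had 39 counts with Veh and 87 after KLA. Spsb3 was nearest to no JunD locus. KLA-only shares were 38.8% of the 67 loci of this list, 37.6% of the 117 loci of the interferon list and 33.3% of the 87 loci of the list of TLR4 and its adaptors, each near the 36.0% of all genes. In the interferon list 14 of 21 genes had a KLA-only locus and 16 of 47 shared loci gained 25 points (12.9% over all shared loci), with Oasl1 (114), Gbp2 (109), Rsad2 (98) and Gbp5 (93) highest.

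Of the genes of TLR4 and its adaptors 12 of 17 had a KLA-only locus, led by Tbk1, a kinase that activates IRF3 (131), Irak3, which restrains the pathway (114), Irak2 (79) and Tlr4 (59). Of the 12 genes of prostaglandin, nitric oxide and arginine metabolism 10 had one, led by Ptges, the prostaglandin E synthase gene (198), Ass1 (112), Ptgs2, which encodes COX-2 (89) and Ptger4 (84). The Ptgs2 locus lay 97853 bp from its TSS. Among genes with any JunD locus, a KLA-only locus was nearest to 12 of 16 in the TLR4 list and 10 of 11 in the prostaglandin list. Over all protein-coding genes with any JunD locus this share was 62.5%. Of the 67 loci of the prostaglandin list 43.3% were KLA-only and 10.4% Veh-only, against 36.0% and 24.2% of the loci of all protein-coding genes.

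**Figure D5:**
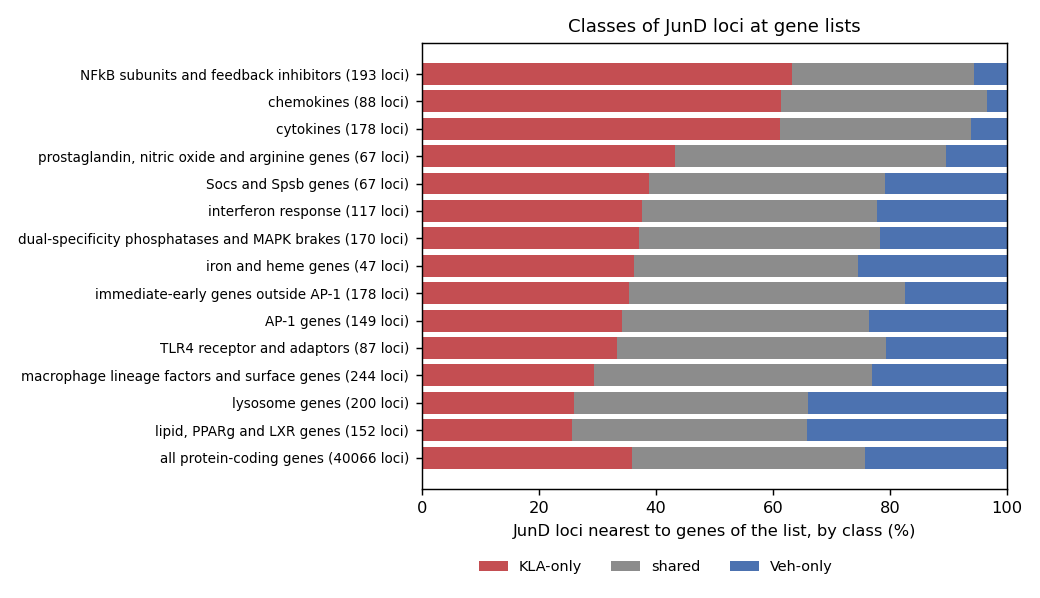
Bars give, for JunD loci nearest to the genes of each list (number of loci in brackets), the percentage that were KLA-only (red), shared (grey) and Veh-only (blue), and 2 lists with under 20 loci are not drawn. The NFκB, chemokine and cytokine lists are 61.2% to 63.2% KLA-only, against 36.0% for all protein-coding genes in the lowest bar.

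Lists of resting macrophage functions had lower KLA-only shares than the 36.0% of all protein-coding genes, and the lysosome and lipid lists also had Veh-only shares above 24.2%. Of 244 loci at macrophage lineage and surface genes 29.5% were KLA-only and 23.0% Veh-only. Of these 23 genes 22 had any JunD locus, and of those 16 had a KLA-only, 22 a shared and 20 a Veh-only locus. Over all protein-coding genes with any JunD locus these shares were 62.5%, 61.8% and 50.7%. Of 200 loci at lysosome genes 26.0% were KLA-only and 34.0% Veh-only, and of 152 at lipid, PPARγ and LXR genes 25.7% and 34.2%. The 5 genes with the most Veh-only loci were Zfp36l2 (15), Plxna1 (13), Dhrs3 (12), Ctsb (12) and Psap (12), of which Ctsb encodes the lysosomal protease cathepsin B and Psap the precursor of the saposins. KLA-only loci of high count were still found at such genes, with Ctsb at 159, Mpeg1 at 140, Npc2, a cholesterol transfer protein gene, at 136, Spi1 at 134, Ctsl at 107, Ppard at 106, Mitf at 103, Atp6v0d2 at 98, Cebpa at 88 and Lpl at 85. Cpt1a (76) and Angptl4 (75) followed in the lipid list.

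Iron genes included a run of loci along Fth1, the ferritin heavy chain gene. In all, Fth1 was nearest to 11 KLA-only, 6 shared and 4 Veh-only loci, with Veh-only counts of at most 70. The gene ends at 9985098 on chromosome 19, and from 9982425 to 9988238, over the gene and on into the neighbouring Best1, lay 9 KLA-only loci with counts of 34 to 116 and 1 shared locus (146 with Veh and 116 after KLA). The highest KLA-only count, 116, lay over a coding exon of Best1 at chr19:9986122-9986331, and no ATF3, Jun, Fos or JunB peak overlapped it or the shared locus. Upstream of the gene, 5 shared loci carried other monomers, such as the one at chr19:9974993-9975222, with JunD at 138 and 157 counts, Fos at 205 and ATF3 at 143 after KLA. Other iron genes had lower KLA-only counts, with Tfrc at 76, Slc48a1 at 68 and Hmox1 at 34. Over the iron list 6 of 10 genes had a KLA-only and 6 a Veh-only locus. With any JunD locus there were 8 of the 10, and over all protein-coding genes with any JunD locus the shares were 62.5% and 50.7%. Of the 47 loci of this list 36.2% were KLA-only and 25.5% Veh-only, near the 36.0% and 24.2% of all protein-coding genes.

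Genes of other peritoneal cells were near a JunD locus about as often as any gene, since 10902 of the 21827 protein-coding genes had none. Of 10 lymphocyte genes 1 had a KLA-only locus, Klrb1c (24 counts), 3 had a Veh-only locus and 5 had none. Of 12 granulocyte and mesothelial genes 4 had a KLA-only locus, namely Mpo (95), Upk3b (69), Siglecf (68) and S100a8 (56), 4 had a Veh-only locus and 5 had none. Peak lists measure binding and not expression, so they do not give the share of other cells in the cultures.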

How the data were processed

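The data are ChIP-seq peak lists of JunD in BALB/cJ TGEMs with Veh or after 1 h of KLA, with the other lists of the study for comparison. The authors used Bowtie2 for mapping, to mm10 or, for BALB/cJ, to a genome built for the strain, whose coordinates were converted to mm10, and called peaks with HOMER against input. They kept peaks with an IDR under 0.05 over replicate experiments, which gives 1 list per condition. The tool versions are not given in the labels. The deposited count of a peak is a whole number that is not scaled to library size, and how the authors combined replicate counts is not stated. The deposited score is the scaled IDR (at least 540). Library depth is unknown, and the counts of the KLA and Veh lists summed to 2097197 and 1544892.

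Peaks that overlapped by 1 bp or more were joined into loci, and other lists were matched by the same rule. Peaks were ranked by count within a list. Genes were those of GENCODE M21, motifs were exact matches in the central 200 bp of a locus on GRCm38.p6, and intervals were 95% Wilson intervals. Python 3.11.15, pandas 2.3.3, scipy 1.17.1 and pysam 0.24.0 were used, and the overlap, rank and motif steps were tested on simulated data. Conditions were taken from the sample labels. Named loci followed a fixed rule: the 10 KLA-only and 10 Veh-only loci with the highest counts, the 10 largest gains and losses of rank, the 5 strongest shared loci, the 10 genes with the most KLA-only and the 5 with the most Veh-only loci, up to 4 genes per list, and Cxcl10, Fth1, Spsb1 and Spsb3, which the study names. The members and lists were chosen with earlier results of these data known. The annotation knew 261 of the 263 listed genes. Sequence differences between the strains were not analysed here, and a peak that maps poorly in one strain cannot be told apart from one that is absent. The values of 1 of the named loci are not reported here.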

Additional observations from a re-analysis of the deposited data

Results flagged for a closer look

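Shared JunD loci with a rank shift of 25 points or more in opposite directions in BALB/cJ and C57BL/6 were singled out among the 11038 loci with both peaks in both strains. At 3 loci the rank was higher after KLA in BALB/cJ and lower in C57BL/6, and at 31 loci (0.281%) it was lower in BALB/cJ and higher in C57BL/6. The widest gap was at chr9:123925264-123925607, nearest to Ccr1, a chemokine receptor gene. The counts there were 50 with Veh and 32 after KLA in BALB/cJ (-34.7 points) and 29 and 353 in C57BL/6 (62.5 points). The C57BL/6 JunD lists had median counts of 50 with Veh and 277 after KLA, so their raw counts differ in scale and the shifts are of rank. Gpr65, a proton-sensing receptor gene, followed with shifts of -61.1 and 28.5 points. The difference between the strains was not tested, since each has 1 list per treatment.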

How the results depend on the processing

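No library could be left out, since each condition has 1 list, and no test was run. No paired analysis was possible because the labels give no more than 1 list per treatment. Reciprocal overlap of 50%, centres within 100 bp, a score of at least 830, the strongest 50% of each list and lists of equal length were tried. KLA-only loci numbered 10466 at the stricter score, and the strongest 50% left 7102 KLA-only, 9817 shared and 4507 Veh-only loci, as fewer peaks must give. The share of KLA-only loci with Fos was 66.2% (centres), 67.0% (reciprocal), 69.8% (score), 79.5% (strongest) and 80.6% (equal length). With ATF3 at rest it was 10.3% (score), 7.7% (strongest) and 14.4% (equal length). The share that was KLA-only in C57BL/6 was 42.0% (centres), 53.6% (score), 59.0% (strongest) and 31.7% (equal length), and the share of Veh-only loci that was Veh-only there 10.7% (score), 24.2% (strongest) and 20.7% (equal length). Within 1 kb of a TSS lay 20.1% (score), 18.1% (strongest) and 24.4% (TSSs of all genes). In the central 100 bp 19.4% held a TRE. The cause of these shifts was not tested. Of 46 values under other settings, 23 stayed within the interval of the share or within 1.5 times the count, among them the ranks by count per bp (2405 gains) and the list genes (199, against 182 and 207).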
